A study of Mus musculus with 4 samples.

Results

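Celf4, Rbfox3, Camk2a and Pnoc are 4 genes of neurons, out of 21887 protein-coding genes measured, and their H3K27me3 peaks were followed in a mouse glioblastoma line before and after irradiation. The genes were chosen by name with their peaks in both lists already known, and thus selected on the same peak counts and strengths that are described here. The peaks per gene and condition are therefore a description, with no test. A peak belonged to a gene when any base of it lay in the RefSeq gene body or within 2 kb of either end. By this rule the 4 genes held 6 of 9866 control peaks and 31 of 16091 irradiated peaks.

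The chromatin came from GL261 cells, a line grown from a mouse glioma and here cultured without a host. The control group was labelled Con and the other IR, taken to mean irradiated since the series title speaks of radiation; no dose or time of harvest is stated in the labels. Each group was 1 H3K27me3 library and 1 input library of the same line, so that no difference between groups could be set against a spread between replicates and no p-value between groups was computed. The peak lists of the 2 H3K27me3 libraries were used, and no separate values of the inputs were analysed. Each library pools the cells of a culture, so more marked cells and more mark per cell cannot be told apart. Whether the cells carry glial or neuronal RNA cannot be read from peaks of a repressive mark, so the labelled cell type was not checked against expressed markers.

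H3K27me3 is written by Polycomb repressive complex 2 and is read by the Cbx proteins of Polycomb repressive complex 1. In many cell types it lies in broad domains over CpG-rich promoters of silent developmental genes, and genes reserved for neurons are among those that Polycomb can hold silent in other lineages. Celf4 and Rbfox3 encode RNA-binding proteins of neurons, and Rbfox3 is the antigen known as NeuN that marks mature neurons. Camk2a encodes the alpha subunit of calcium/calmodulin-dependent kinase II, an abundant enzyme of excitatory synapses, and Pnoc encodes the precursor of the neuropeptide nociceptin.

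The peaks of both lists were narrow and most rested on few reads. Control summits rested on a median of 10 ChIP reads, with the middle of the list between 8 and 11. Irradiated summits rested on a median of 11, between 10 and 13. These reads were recovered from each peak's fold enrichment and p. At the lowest background of each list a peak needed at least 7 reads in the control and 8 in the irradiated library. The fold is the authors' enrichment at the summit over the local background of their caller, and q is the authors' p adjusted over the genome. A q of at most 0.05 was reached by 6.84% of control and 15.2% of irradiated peaks.

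Of the 4 genes, the set of RefSeq promoter windows used here (GRCm38.p6, the assembly of mm10) covered Rbfox3 alone. Its window is shown because none of the peaks in that gene lay on it. The window holds 250 bases before and 50 bases after an annotated start on the minus strand, at chr11:118760992-118761291, inside the gene and 151 kb from its upper end. It is set beside the window of Rbfox1, the relative with a start on the plus strand at chr16:7069585-7069884, because that one was the sole promoter window among the gene lists used here that a peak covered. Capitals mark each CG dinucleotide, the pair at which vertebrate DNA is methylated and which is dense in CpG islands.
Rbfox3: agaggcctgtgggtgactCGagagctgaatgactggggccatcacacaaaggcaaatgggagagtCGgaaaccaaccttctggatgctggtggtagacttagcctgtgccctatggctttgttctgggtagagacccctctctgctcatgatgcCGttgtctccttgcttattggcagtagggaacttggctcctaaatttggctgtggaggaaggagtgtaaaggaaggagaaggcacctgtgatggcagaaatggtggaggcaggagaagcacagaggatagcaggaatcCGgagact
Rbfox1: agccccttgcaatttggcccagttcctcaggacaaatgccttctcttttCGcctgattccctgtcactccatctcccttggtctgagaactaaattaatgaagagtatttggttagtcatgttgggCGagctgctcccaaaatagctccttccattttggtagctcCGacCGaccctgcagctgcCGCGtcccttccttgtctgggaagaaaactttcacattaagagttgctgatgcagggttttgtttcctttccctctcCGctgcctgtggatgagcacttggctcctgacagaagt
The search was for CG, which reads the same on both strands. The Rbfox3 window held 4, a number reached or passed by 68.6% of the 32851 promoter windows of the same length, and the Rbfox1 window held 7, reached or passed by 52.1%. The median over all windows was 7, so neither window exceeded it. Across the genome, 0.283% of promoter windows were met by a control peak and 0.484% by an irradiated peak, so peaks on promoters were rare in both lists. The gene lists used here had 132 windows of 89 genes, of which 0 met a control peak and 1 an irradiated peak. That irradiated peak, at 7069565 to 7070004 of chromosome 16, covered the whole Rbfox1 window with 13 reads (fold 4.10, q 0.0536), and the nearest control peak lay 9698 bp away. The nearest summit to the Rbfox3 start was 54.5 kb away.

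Celf4, whose protein binds transcripts of synaptic genes and regulates their splicing and translation, held the most peaks of the 4 genes. It spans 277 kb of chromosome 18 (25477620 to 25754520). The control list had 6 peaks there and the irradiated list 22, a ratio of 3.67 against 1.63 over all peaks and 1.85 over those of chromosome 18. Irradiated peaks made up 78.6% of the 28 peaks of both lists, with an exact (Clopper-Pearson) 95% interval of 59.0 to 91.7 that covers counting error only. Over the whole lists the share was 62.0%. The gene was chosen with these counts known and its peaks lie in clusters, so nothing is read from the interval.

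The 6 control peaks of Celf4 sat toward the upper-coordinate end of the gene. Their summits lay 147, 234, 262, 263, 268 and 269 kb from the lower end, so that 4 of them were crowded between 14.9 and 8.26 kb from the upper end. By fold they were weak: the folds ran from 3.11 to 3.60 with a median of 3.17, below the list's median of 3.43. Of the 6, 1 exceeded that median. By the authors' −log10 p their median was 3.13, beside 3.42 over the list, and the highest was 4.08. The strongest, at 25739190 to 25739833, reached 10 reads (fold 3.60, q 0.385). None of the 6 reached a q of 0.05, and 3 of them had a q of 1.

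**Figure D1:**
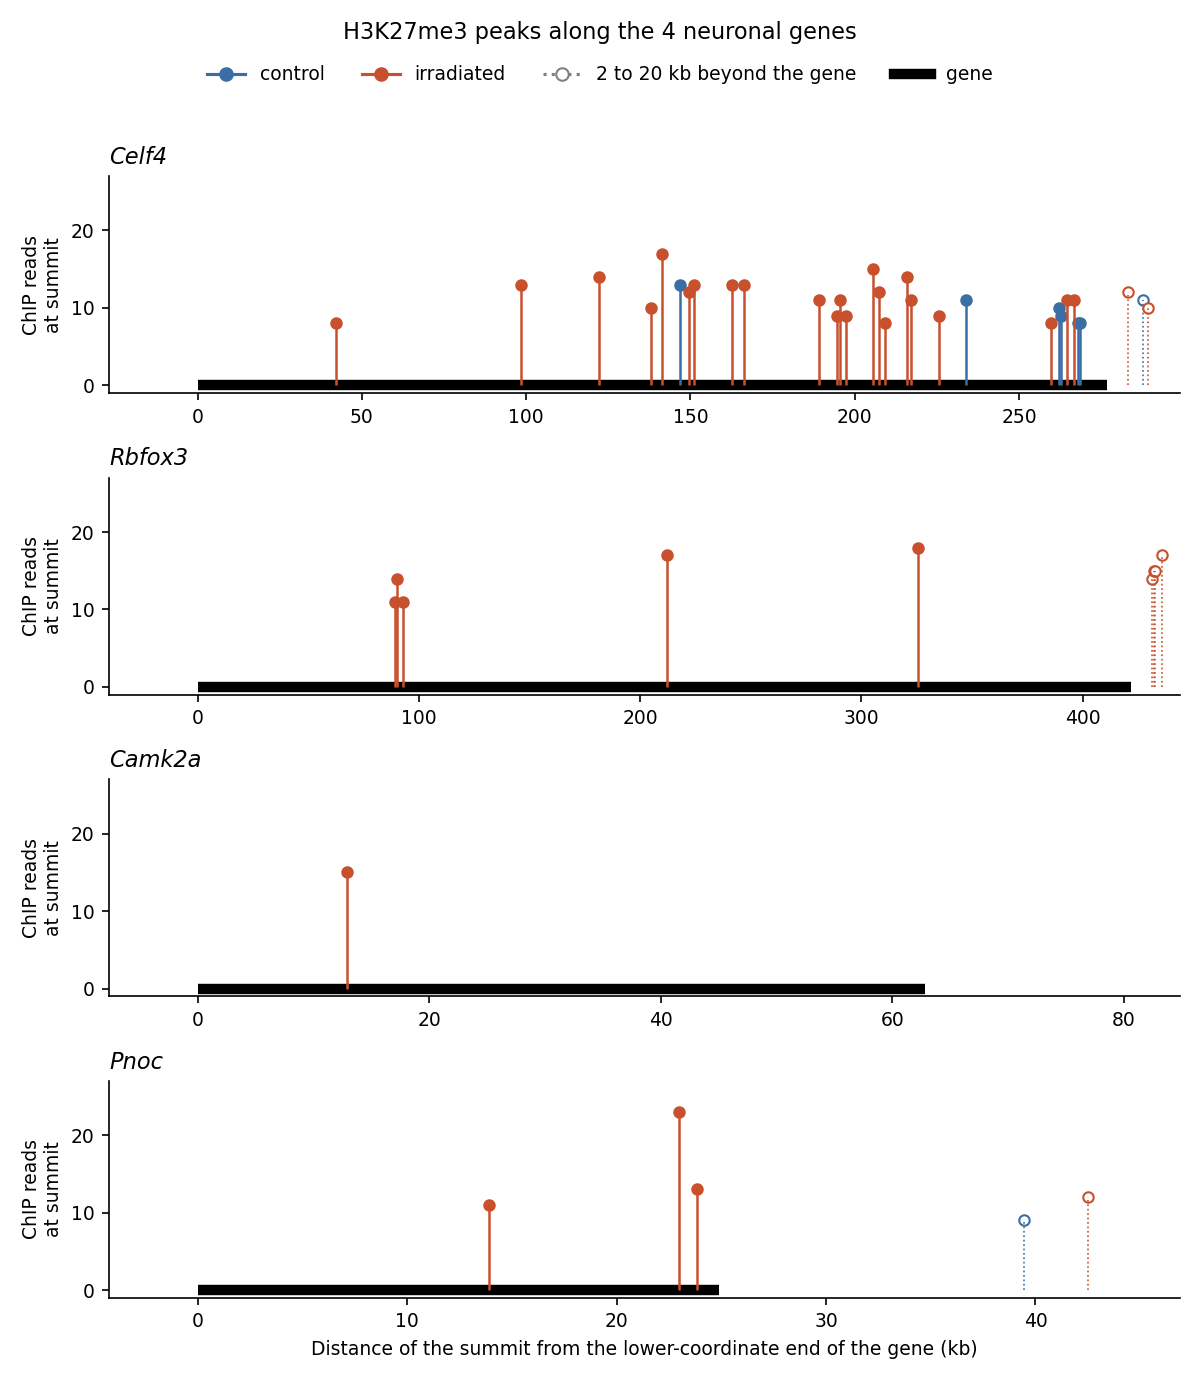
Peaks along Celf4, Rbfox3, Camk2a and Pnoc: the horizontal axis is the distance of each summit from the lower-coordinate end of the gene in kb, the vertical axis the number of ChIP reads at the summit, blue for the control and red for the irradiated list; filled points lie in the gene or its 2 kb margins, open points up to 20 kb beyond. Celf4 has 22 irradiated and 6 control peaks, most of them in its upper-coordinate part, and the other 3 genes have irradiated peaks alone.

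The 22 irradiated peaks of Celf4 were spread more widely and were densest just past the middle of the gene. In 4 stretches of equal length, counted from the lower end, there were 1, 3, 11 and 7 irradiated peaks and 0, 0, 1 and 5 control peaks. A run of 14 irradiated peaks with no control peak between them covered 76.5 kb, from 25627124 to 25703635. The folds within the run went from 2.55 to 4.70 and the reads from 8 to 15. Over all 22, the fold had a median of 3.41, below the median of 3.67 of the irradiated list, and 5 exceeded that median. The median spacing between neighbouring summits was 5380 bp. The peaks were wider than usual for the list, with a median of 468 bp against 364 bp, and 19 of 22 were above the list's median width. Together they covered 4.34% of the gene and its margins, against 0.875% for the control peaks. The called peaks thus left most of the gene uncovered in both lists. Whether a broad domain below the calling threshold joins them cannot be read from narrow calls on few reads.

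The strongest irradiated peak of Celf4, at 25692475 to 25693738, was also the widest, with 1264 bp and 2 summits. Its 14 reads stood over a background of 0.864 scaled reads (ChIP reads after the caller's scaling), which gave fold 4.70 and q 0.0241, and 13.7% of irradiated peaks were at least as strong by p. The next, at 25639796 to 25641044, was 1249 bp wide with 3 summits and 13 reads (fold 4.27, q 0.0351). The third, at 25682807 to 25683306, reached 15 reads (fold 4.15, q 0.0395). These 3 were the peaks of the gene with a q of at most 0.05. All lay between 58.7% and 78.0% of the way along the gene, a stretch with no control peak. The most reads, 17, were at the peak from 25618859 to 25619664, where the background of 1.86 scaled reads was also raised and the fold came to 3.64 (q 0.0561). The 2 irradiated peaks at 25575914 to 25576418 and 25599470 to 25599869 lay inside Gm3227, a noncoding RNA gene nested in Celf4, so they cannot be assigned to either transcript. Exons, introns and untranslated regions were not resolved, and the strand of Celf4 is not in the tables used here.

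The lists did not meet on Celf4. None of the 6 control peaks overlapped an irradiated peak, a count of 0 that allows a share of up to 50%, and none of the 22 irradiated peaks overlapped a control peak, which allows up to 13.6%. Over the whole lists 21.4% of control and 13.3% of irradiated peaks overlapped. The limits take 3 counts for a count of 0, a rough rule at so few peaks, and the peaks lie in clusters. The share of 13.3% is close to its limit of 13.6%, so nothing is read from the absence of overlap. The closest approach was near the upper end, where the irradiated peak at 25744025 to 25744408 (11 reads, fold 4.16) ended 615 bp before the control peak at 25745023 to 25745615 (8 reads, fold 3.11). In this stretch of under 20 kb, 3 irradiated and 4 control peaks were interleaved without touching. Just outside the 2 kb margin, an irradiated peak lay 5.98 kb above the gene with 12 reads (fold 4.49, q 0.0536). A control peak lay 10.6 kb above the gene with 11 reads (fold 4.08, q 0.385), stronger by p than any control peak within the gene.

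Celf4 stood above its surroundings in peak density. It held 2.14 control and 7.83 irradiated peaks per 100 kb, against 1.02 and 2.04 in the flanks of 100 kb on either side, 0.701 and 0.651 in those of 1 Mb, and 0.524 and 0.970 over chromosome 18. The 100 kb flanks held 2 control and 4 irradiated peaks, the 500 kb flanks 5 and 5, and the 1 Mb flanks 14 and 13. These numbers are too small and too close for the order of the lists in the flanks to be read. The nearest coding genes, AW554918 at 10.3 kb below and Pik3c3 at 4510 kb above, had no peak in either list. Among the 774 coding genes within 1.5 times its length, Celf4 included, 13 had more irradiated peaks and 509 (65.8%) had no peak in either list. Of coding genes of at least 200 kb, 2.63% had at least 22 irradiated peaks. Of coding genes of any length with at least 5 control peaks, 11.0% had at least 3 times as many irradiated as control peaks. On chromosome 18 the genes with more irradiated peaks were Ablim3 (8 control and 36 irradiated) and Zbtb7c (1 and 28), both named after their values were seen.

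**Figure D2:**
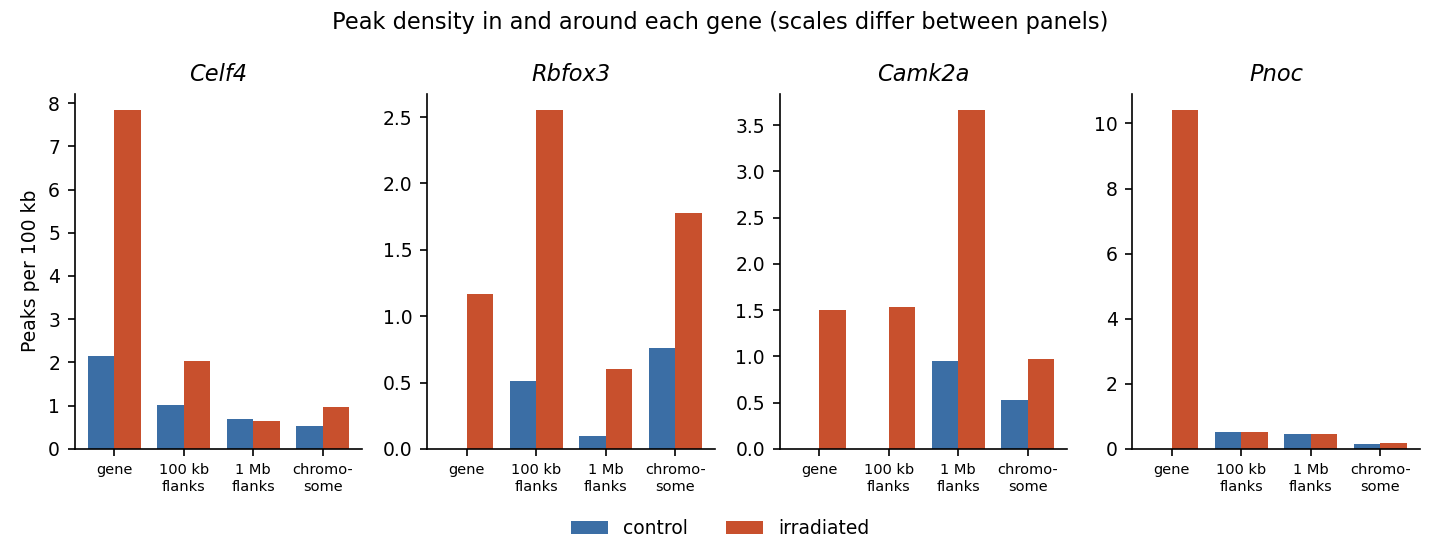
Peaks per 100 kb in each gene with its margins, in the flanks of 100 kb and of 1 Mb on either side, and over its chromosome, for the control (blue) and irradiated (red) list; vertical scales differ between panels. Celf4 has 2.14 and 7.83 peaks per 100 kb against 0.701 and 0.651 in its 1 Mb flanks and 1.02 and 2.04 in its 100 kb flanks; for Camk2a the 1 Mb flanks, at 3.66 irradiated peaks per 100 kb, are denser than the gene, and the 100 kb flanks, at 1.53, are close to its 1.5.

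Rbfox3, the splicing regulator NeuN, spans 422 kb of chromosome 11 (118489760 to 118911597) on the minus strand and held 5 irradiated peaks and no control peak. An irradiated peak without a control peak was found for 4.53% of all coding genes and for 7.36% of those of at least 300 kb, and at least 5 irradiated peaks without a control peak for 1.08% of the latter. Near the 3' part of the gene, 3 peaks lay between 89.1 and 92.7 kb from the lower end, at 118578770 to 118579219, 118579672 to 118580145 and 118582114 to 118582520. They had 11, 14 and 11 reads and folds of 2.63, 3.24 and 2.88. The fourth, at 118701564 to 118701914, had 17 reads (fold 2.60). The fifth and strongest, at 118815302 to 118815725, reached 18 reads (fold 3.73, q 0.0753). The peaks thus formed 1 group of 3 and 2 isolated peaks, and none reached a q of 0.05.

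All 5 Rbfox3 peaks stood on a raised background, between 1.46 and 3.0 scaled reads where the lowest of the list was 0.704. The fold sets the reads against this background, and the fourth peak, with 17 reads, had the highest background and the lowest fold of the 5. Of the 5 peaks, 4 had folds under the list's median of 3.67. The gene held 1.17 irradiated peaks per 100 kb, beside 2.55 in its 100 kb flanks, 0.601 in its 1 Mb flanks and 1.78 over chromosome 11. The gene was thus sparser in irradiated peaks than its 100 kb flanks and denser than its 1 Mb flanks. These densities rest on 5 peaks in the gene, 5 in the 100 kb flanks and 12 in the 1 Mb flanks, and are imprecise. Most peaks of the 100 kb flanks formed a cluster on the upper side of the gene. Among 469 coding genes within 1.5 times its length, itself included, 61 had more irradiated peaks.

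Beyond the 2 kb margin, and so not counted, 4 irradiated peaks clustered upstream of the 5' end of Rbfox3, 8.96 to 13.5 kb above the gene. The farthest of them, at 118925068 to 118925753, had 2 summits, 17 reads over a background of 1.08 scaled reads (fold 5.01, q 0.00383) and was stronger than any peak inside the gene. No control peak lay within 20 kb of the gene; the nearest was 26.8 kb below it, with 15 reads over a background of 2.84 scaled reads (fold 2.68). Engase, 0.551 kb below, and Enpp7, 76.6 kb above, the nearest coding genes, had no peak in either list.

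Camk2a, the kinase subunit of the postsynaptic density, spans 62.8 kb of chromosome 18 (60925307 to 60988152) and held 1 irradiated peak and no control peak. The peak, at 60938001 to 60938449, lay 12.9 kb from the lower end, 20.5% of the way along the gene. It had 15 reads over a background of 2.16 scaled reads, 3.07 times the lowest of the list (fold 2.94, q 0.336). By p, 64.0% of irradiated peaks were at least as strong, so this is a weak peak of its list. Of coding genes of 50 to 100 kb, 7.11% had an irradiated and no control peak.

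Irradiated peaks were about as dense beside Camk2a as in it, and denser farther out. Per 100 kb the gene had 1.5 irradiated peaks, from 1 peak, its 100 kb flanks 1.53, from 3 peaks, its 500 kb flanks 2.81 and its 1 Mb flanks 3.66. The control list had 0, 0.502 and 0.952 in these flanks. The 1 Mb flanks held 19 control and 73 irradiated peaks, an irradiated share of 79.3%, beside 64.9% over chromosome 18, which includes them; with 1 library per group this difference was not tested. The nearest irradiated peaks outside the gene were 52.6 kb below it, with fold 4.54 and q 0.0119, and 40.8 kb above it, with fold 2.92. The nearest control peaks were 613 kb below and 419 kb above. The neighbours Arsi and Slc6a7, within 5.80 and 7.22 kb, had no peak.

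Pnoc, the nociceptin precursor gene, was the shortest of the 4 genes, with 24.9 kb on chromosome 14 (65400673 to 65425564), and held 3 irradiated peaks and no control peak. Per length this was the densest of the 4, with 10.4 irradiated peaks per 100 kb, although a density that rests on 3 peaks is imprecise. An irradiated and no control peak was found for 4.81% of coding genes of 15 to 35 kb, and at least 3 irradiated and no control peaks for 0.648%. The strongest peak, at 65423450 to 65423740, was 291 bp wide and lay 1.94 kb from the upper end of the gene. It had 23 reads over a background of 1.32 scaled reads (fold 5.91, q 7.81e-05). It ranked 263 in the irradiated list by p, where 1.63% of peaks were at least as strong. An irradiated peak of at least this p and no control peak was found for 3 coding genes, or 0.0137%, Pnoc among them; since the genes were chosen with their peaks known, nothing is read from this share.

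A second Pnoc peak, at 65424378 to 65424982, had its summit 863 bp farther on and was the widest, with 605 bp and 13 reads (fold 3.49, q 0.149). The third, at 65414429 to 65414698 near the middle of the gene, had 11 reads (fold 3.92, q 0.0536). Both peaks at the upper end stood on a background 1.88 and 1.92 times the lowest of the list, and the middle one on 1.15 times. The nearest control peak was 14.4 kb above the gene with 9 reads (fold 3.43, q 0.831), and the next irradiated peak 17.4 kb above the gene with 12 reads (fold 3.82). The 1 Mb flanks held 9 peaks of each list, 0.451 per 100 kb. Zfp395 and Elp3, the coding genes at 1.74 kb below and 105 kb above, had no peak in either list.

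**Figure D3:**
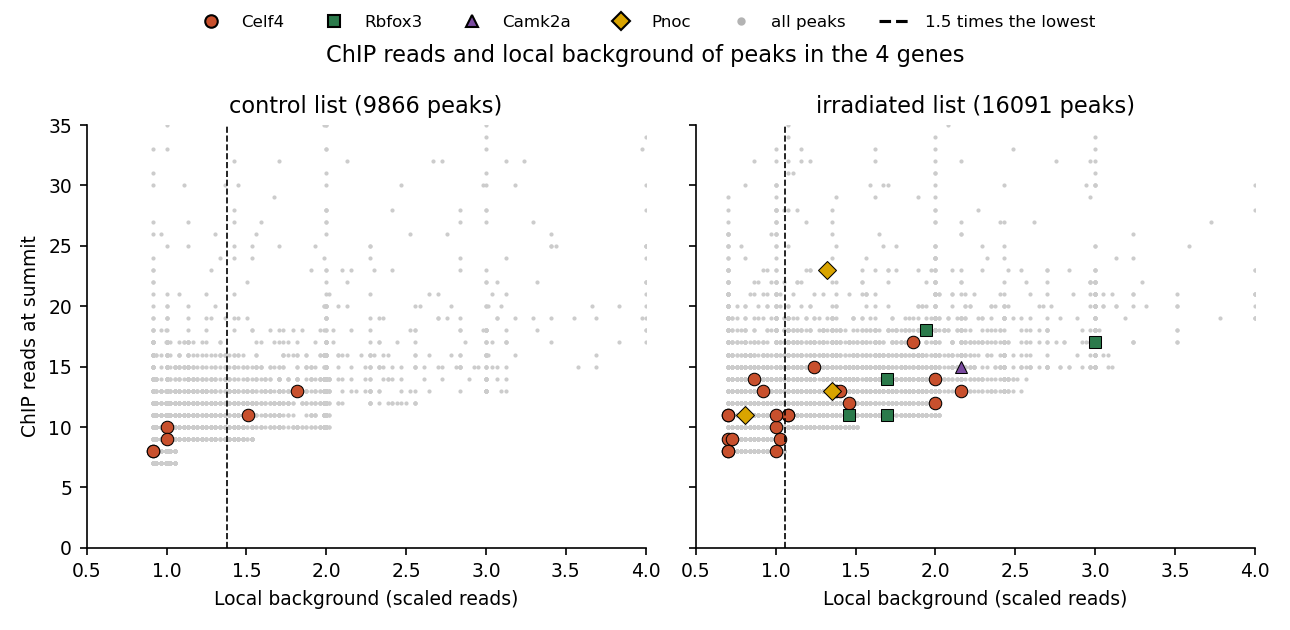
Number of ChIP reads at the summit (vertical axis) against the local background in scaled reads (horizontal axis) for all peaks (grey) and the peaks of the 4 genes (coloured by gene) in each list; the dashed line stands at 1.5 times the lowest background of the list, and peaks beyond the axes are not drawn. The Pnoc peak with 23 reads lies above the other peaks of the 4 genes, and all Rbfox3 peaks and the Camk2a peak lie to the right of the line.

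Raised background went with many of these peaks. A background of at least 1.5 times the lowest was found under 18 of the 31 irradiated peaks of the 4 genes (58.1%), against 26.4% of all irradiated peaks, and under 2 of the 6 control peaks, against 14.9%. The lowest was that of each list, 0.918 scaled reads in the control and 0.704 in the irradiated, so the cut fell lower in the irradiated list. On Celf4 a raised background was found under 10 of 22 irradiated and 2 of 6 control peaks. Without them 12 irradiated and 4 control peaks remained, a ratio of 3.0. The ratio of the whole lists without peaks over a raised background was not computed. Without such peaks Pnoc kept 1 irradiated peak, and Rbfox3 and Camk2a had none. The part of background in these counts was not tested further. The irradiated list is longer than the control list. With the strongest 9866 irradiated peaks, as many as the control list holds, the irradiated count was 11 for Celf4, 1 for Rbfox3, 0 for Camk2a and 3 for Pnoc, beside control counts of 6, 0, 0 and 0. This takes away the weakest irradiated peaks, so the length of the list and the strength of its peaks cannot be told apart here. At a q of at most 0.05, 3 irradiated peaks of Celf4 and 1 of Pnoc were left, 12.9% of the 31, and no control peak. Over the whole lists this q was reached by 15.2% of irradiated and 6.84% of control peaks.

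**Figure D4:**
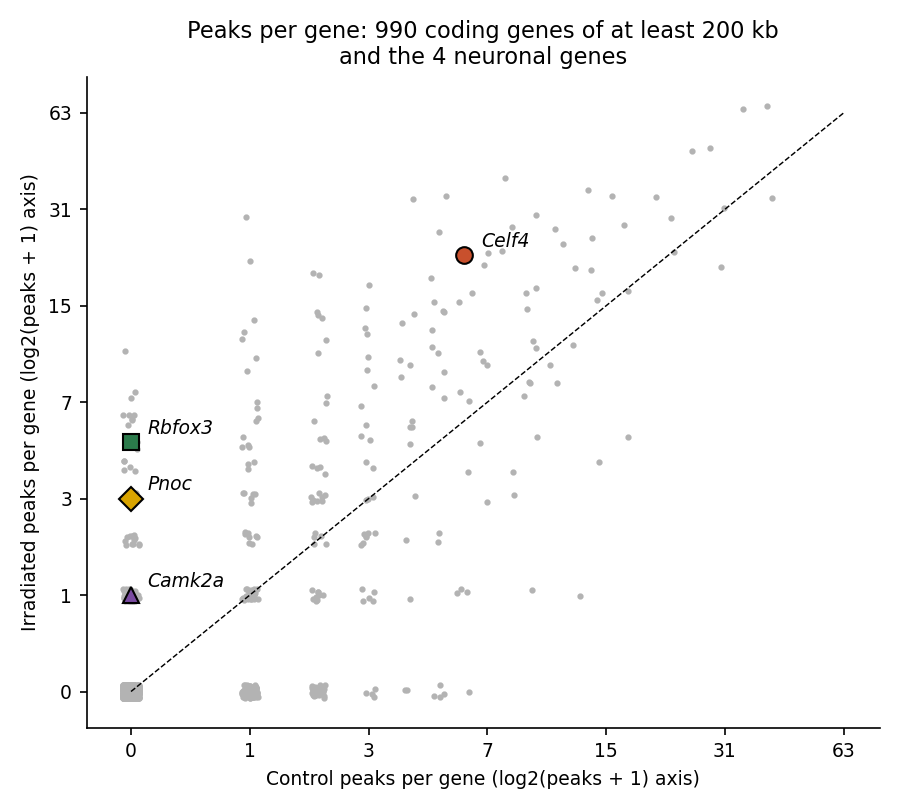
Control (horizontal) and irradiated (vertical) peaks per gene on log2(peaks + 1) axes for the 990 coding genes of at least 200 kb (grey, with a small random shift so that points do not hide each other) and for the 4 genes; the dashed line marks equal numbers. Celf4 lies above the line at 6 and 22 peaks among other long genes, and Rbfox3, Pnoc and Camk2a lie on the left edge, with 5, 3 and 1 irradiated peaks.

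The genes with the most similar peaks were taken among coding genes within 1.5 times the length, by a distance that sums differences in log2(peaks + 1) and in the −log10 p of the strongest peak divided by 5, over the 2 libraries. For Celf4 these were Zdhhc14 (8 control and 22 irradiated peaks, distance 0.466), a palmitoyltransferase gene, Tbxas1 (5 and 16, distance 0.835), which encodes thromboxane synthase, and Abr (5 and 26, distance 0.904). For Rbfox3 they were the potassium channel gene Kcnh1 (0 and 5, distance 0.0636), the GABA-B receptor gene Gabbr2 (0 and 6, distance 0.228) and the sorting receptor gene Sorcs2 (0 and 6, distance 0.293). For Camk2a, with its single weak peak, 219 of 3153 genes of like length had more irradiated peaks; the nearest were Lemd1, Pkd1l3 and Syk, each with 1 irradiated peak. The nearest to Pnoc were Akap3, Lrrc66 and Fam183b, each with 3 irradiated and no control peaks, at distances of 0.487 to 0.695. A likeness over 2 libraries describes the counts and says nothing more of these genes.

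Of the 6 Celf genes, Celf4 was the one with peaks, and Celf1, Celf2, Celf3, Celf5 and Celf6 had none in either list. This is 16.7% in each list, beside 6.05% and 8.20% of all coding genes with a control and an irradiated peak. Celf4 was chosen with its peaks known, and most coding genes had no peak, so nothing is read from this count. Of the 3 Rbfox genes, Rbfox1, a splicing regulator gene of 1530 kb on chromosome 16, held 29 control and 20 irradiated peaks, the reverse order of Rbfox3. The irradiated share was 85.7% in the 1 Mb flanks of Rbfox3 and 70.1% over its chromosome. The surroundings of Rbfox1 were not measured, and the difference in order was not tested. Its strongest irradiated peak stood at fold 4.81 and q 0.0119, and its strongest control peak at fold 3.75 and q 0.385. Rbfox2 had no peak. The marked shares of these 3 genes, Rbfox3 included, were 33.3% and 66.7%, beside the same 6.05% and 8.20%. Per 100 kb Rbfox1 had 1.89 control and 1.31 irradiated peaks, and Rbfox3 0 and 1.17.

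Of the 16 genes of the calcium/calmodulin kinases, their calmodulins and inhibitors, control peaks were on 1 (6.25%) and irradiated peaks on 3 (18.8%), beside 6.05% and 8.20% of all coding genes. Camk4, a nuclear kinase gene on chromosome 18, held 2 control and 3 irradiated peaks with folds of 4.40 (q 0.0823) and 4.16 (q 0.0536) at the strongest. Camk1g on chromosome 1 held 1 irradiated peak (fold 3.84, q 0.149). The other subunit genes of the Camk2a enzyme, Camk2b, Camk2d and Camk2g, and its inhibitor genes Camk2n1 and Camk2n2 had no peak.

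Among the 8 genes of opioid peptides and their receptors, 2 carried control peaks (25.0%) and 4 carried irradiated peaks (50%), Pnoc included, beside 6.05% and 8.20% of all coding genes. Oprl1, which encodes the receptor of nociceptin and is thus the partner of Pnoc, had 1 control peak (fold 3.75, q 0.385) and no irradiated peak. Oprd1, the delta receptor gene, had 1 irradiated peak with a fold of 2.92, and Oprm1, the mu receptor gene, 2 control peaks and 1 irradiated peak with folds of 4.08 and 3.27 at the strongest. Penk, the enkephalin precursor gene, named to complete the count, had 1 irradiated peak (fold 2.55, q 0.915). Pdyn, Pomc and Oprk1 had none. Pnoc was the one gene of this list with a q of at most 0.05. With equal numbers of peaks in both lists, taken by p, 2 genes carried control peaks and 1, Pnoc, carried irradiated peaks. The order of the lists was then reversed, so the irradiated share of 50% rests on weak peaks and on Pnoc, which was chosen with its peaks known.

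The 119 other genes of the 9 lists used here included 15 with a control peak (12.6%) and 22 with an irradiated peak (18.5%). Both kinds were on 13 genes, 2 had control peaks alone and 9 irradiated peaks alone (7.56%, beside 4.53% of all coding genes). The median number of peaks was 0 in both lists, as it was over all coding genes. The genes of the lists had a median length of 26.0 kb, members included, against 17.2 kb over all coding genes, and longer genes have more room for peaks. Of 14 postsynaptic density genes, where Camk2a protein resides, 6 were marked in each list (42.9%), beside 6.05% and 8.20% of all coding genes. These genes are long, with a median of 84.3 kb. Most of these peaks were on Grin2b, an NMDA receptor gene, with 41 and 35, followed by Grin2a with 11 and 8 and the AMPA receptor gene Gria1 with 10 and 11; the scaffold gene Shank3 had 2 and 4, the strongest irradiated one at fold 5.21 and q 0.00220. Grin2b and Grin2a thus had more control than irradiated peaks, as did Dlgap1 (1 and 0). Gria1, Shank3, Shank2 (1 and 5) and Shank1 (0 and 2) had more irradiated peaks, as the 4 members had. The order of the lists on these genes was not tested.

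Of 14 genes of neuronal RNA-binding proteins, control peaks were on 1 (7.14%) and irradiated peaks on 3 (21.4%). The marked genes were Khdrbs3 (5 and 11 peaks), Elavl4 (0 and 2) and Srrm3 (0 and 1). Over all coding genes the shares were 6.05% and 8.20%. The genes of this list are long, with a median of 151 kb against 17.2 kb over all coding genes. Of 26 neuron markers other than the members, Syn2 had 1 peak in each list, and Nefh and Gad1 1 irradiated peak each, with folds of 3.69 and 3.14. The shares of 3.85% and 11.5% stand beside 6.05% and 8.20% of all coding genes. Of 18 neuropeptide genes, Sst had 1 peak in each list and Grp on chromosome 18 had 2 irradiated peaks. These are shares of 5.56% and 11.1%, beside the same 6.05% and 8.20%. Of 18 glial and glioma markers, the genes of the other lineage these cells could resemble, Slc1a2 (3 and 3 peaks) and Egfr (4 and 7) were the 2 with peaks, in both lists. Their share was 11.1% in each list, again beside 6.05% and 8.20%. Apart from Celf4 and Pnoc, a q of at most 0.05 in either list was found among the 123 genes of the lists for Rbfox1, Khdrbs3, Grin2b, Shank3, Grin2a, Slc1a2 and Egfr.

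**Figure D5:**
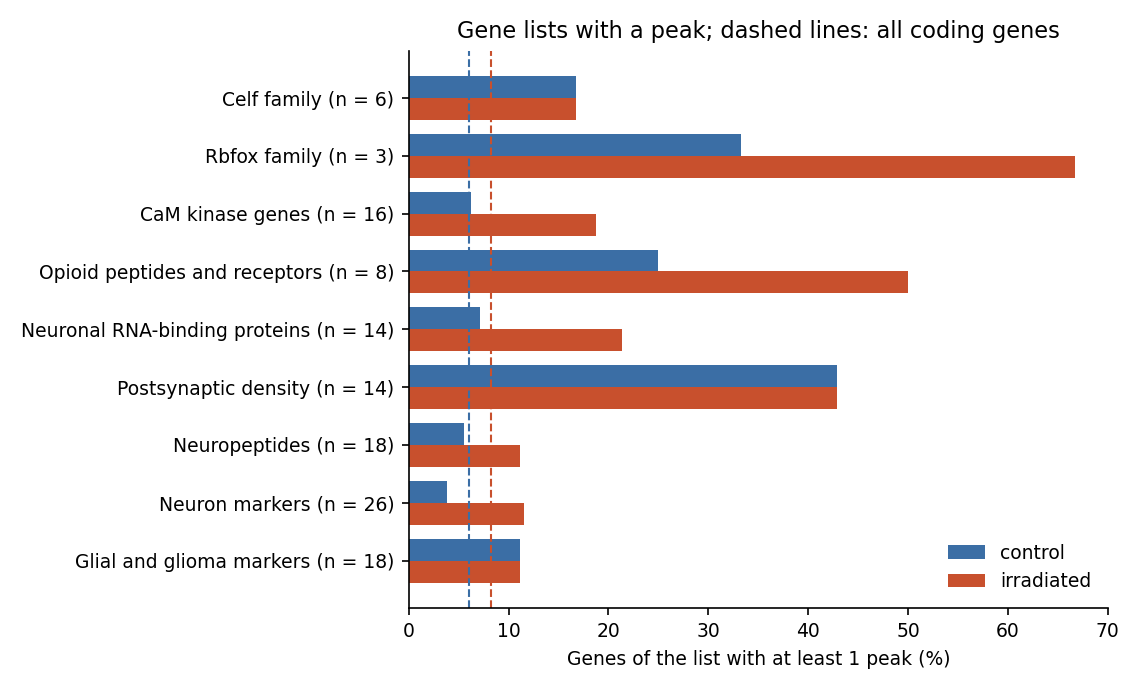
Percent of genes with at least 1 peak in the control (blue) and irradiated (red) list for each gene list, with the number of its genes in brackets; the dashed lines stand at 6.05% and 8.20%, the shares over all coding genes. The Celf, Rbfox, CaM kinase and opioid lists include the members themselves, and the bar of 66.7% for Rbfox rests on 2 of 3 genes.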

How the data were processed

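H3K27me3 ChIP-seq of control and irradiated GL261 cells was used, with 1 library per group, so there were no replicates to compare. Per the submitters' processing notes, reads were treated with BWA and deepTools on mm10; no version, peak caller or filter is named there. Per the labels' protocols, chromatin was sonicated after formaldehyde fixation. The authors deposited 1 peak list per library. Each line of these deposited lists gives other values (interval and summit coordinates), a score equal to 10 times −log10 p without its decimals, a fold ratio over local background, and the −log10 of a p-value and of a q-value.

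Lines that gave further summits of an interval (215 control, 679 irradiated) were merged, keeping the strongest by p. Reads and background were solved from fold and p, with the fold taken as scaled pileup plus 1 over background plus 1 and the p as a Poisson upper tail. All lines (100%) had a whole number of reads within a tolerance of 0.01; in 15.1% of control and 3.65% of irradiated lines more than 1 number met it, and the closest was taken. 1 read counted as 0.620 and 0.554 scaled reads. Tested on simulated lists of 20665 control and 28920 irradiated peaks, the solver returned the right reads in 100%. These lists were made under the same model without noise. The test thus checks the solving and not whether the unnamed caller used this model. ChIP library totals are unknown. Intervals and limits (3 counts for a count of 0) cover counting error only. All 123 list genes matched the RefSeq table.

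The members and lists were chosen with earlier results of these data known. The named genes are the members, their coding neighbours, up to 4 marked genes per list by lowest q, and the 3 nearest in pattern. Other windows, strengths and definitions of overlap were alternatives. Peak sequences were not analysed here. Python 3.11.15, numpy 2.4.6, pandas 2.3.3 and scipy 1.17.1 were used.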

Additional observations from a re-analysis of the deposited data

How the results depend on the processing

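The number of peaks in each gene was the same with no window, with 5000 bp and, but for 1 further irradiated peak each on Celf4 (23) and Rbfox3 (6), with 10000 bp. It depended on the strength of peaks. At a q of at most 0.05 the irradiated peaks were 3 for Celf4, 0 for Rbfox3, 0 for Camk2a and 1 for Pnoc, and at a −log10 p of at least 5 they were 5, 0, 0 and 1; the Celf4 control peaks were 0 and 0. With equal numbers of peaks the irradiated counts of Celf4, Rbfox3 and Camk2a were 11, 1 and 0, and without peaks over a raised background those of Celf4, Rbfox3, Camk2a and Pnoc were 12, 0, 0 and 1. With peaks within 5000 bp merged, Celf4 had 3 control and 12 irradiated peaks and Rbfox3 3 irradiated peaks. With a gap of at most 1000 bp taken as sharing, 1 control and 1 irradiated peak of the members were shared, and 0 by the other definitions. Over all lists, 16 control and 26 irradiated genes with a peak became 2 and 9 at a q of at most 0.05 and 4 and 12 at a −log10 p of at least 5. Fewer peaks are left by construction under the stricter settings. The strongest peak of each gene did not change with the fold as the measure. A tolerance of 0.02 could not change its reads, because the closest number of reads is taken at either tolerance. With it, more than 1 number met the tolerance in 43.9% of control and 12.0% of irradiated lines. No paired analysis was possible because each group has 1 library, and no replicate could be left out. At 7 or 8 reads per called peak, a gene without a control peak may carry the mark below the calling threshold.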
